A study of Chlamydomonas reinhardtii with 45 samples.

Results

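The histone genes of *Chlamydomonas reinhardtii*, a unicellular green alga, were followed over a day and a night under 3 light intensities. Members were the genes whose description in the expression table names a histone H1, H2A, H2B, H3 or H4, with enzymes and chaperones that act on histones left out. This gave 126 of 17609 genes: 3 genes of H1, 27 copies and 2 variants of H2A, 26 copies and 1 variant of H2B, 32 copies and 3 variants of H3, and 32 copies of H4. The word copy is used here for the 117 core histone genes that the description does not call a variant. Strain CC-5390, labelled WT and derived from a cell-wall-deficient parent complemented for arginine synthesis, was kept in photobioreactors on 12 h of light at 28°C and 12 h of dark at 18°C. Populations were acclimated to low light (LL, 50 PFD), moderate light (ML, 200 PFD) or high light (HL, 1000 PFD), PFD being the photon flux density of the day phase. The LL cultures had first been grown at ML. Poly(A) RNA was sequenced at −2 h (before dawn), +2, +6 and +10 h (counted from the onset of light) and −10 h (after dusk), with 3 replicates for each of the 15 groups and 45 libraries in all.

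Histones package nuclear DNA. An octamer of H2A, H2B, H3 and H4 forms the nucleosome core and H1 binds the linker DNA between nucleosomes. Most core histone genes are transcribed during S phase, when new DNA needs new nucleosomes, whereas variant histones can be made outside S phase and replace the core proteins at particular places. Under day and night cycles *Chlamydomonas* cells grow in the light and divide around dusk. In animals the messages of replication-coupled histones end in a hairpin in place of a poly(A) tail, and the *Chlamydomonas* annotation contains a protein, HBP1, described as binding the hairpin of histone transcripts.

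Levels are FPKM, fragments counted per unit of transcript length and of sequencing depth, as the authors deposited them. Library sizes are not in the table. The number of genes above 0 was 13849 in LL replicate 1 at −2 and 15018 to 15802 in the other 44 libraries. Libraries were made from poly(A) RNA, and reads that match several near-identical copies cannot be placed with certainty, so the level of a single copy is uncertain and levels are given mostly as sums over copies. What part the selection or the placing of reads has in the low levels was not tested. In bulk RNA, fewer cells with a transcript and less of it per cell cannot be told apart. ML replicate 3 stood apart from the other ML replicates in histone levels, lower at +10 and higher at −10. ML replicate 2 at −2 was above its group for HAV2 and for genes of DNA replication. Values without these libraries are given beside the results they change most.

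Core copies were listed at very low levels. The median of their mean FPKM over the 45 libraries was 0.117, against 4.14 for all genes. The highest single value of any copy was 10.3 FPKM, for the H2A copy HTA22 at +2 in ML. The H4 copies HFO7 and HFO15 were at 0 throughout. A gene entered the tests with at least 1 FPKM in at least 3 libraries, which 39 of the 126 members reached: 2 of 3 H1 genes, 8 of 27 H2A copies, 16 of 26 H2B copies, 4 of 32 H3 copies, 4 of 32 H4 copies and 5 of 6 variants. The 87 members under the filter have no test below. Of the 39, 13 would have missed the filter without the HL libraries at +10 and 22 without all libraries at +10, so counts and medians among the 39 describe those members only.

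Most copies were listed at 0 through the day and had their highest level at its end. In all 3 populations 94 of the 117 copies had their highest mean at +10 or −10, 7 had it at −2, +2 or +6, 13 were at 0 throughout in at least 1 population and 3 showed another pattern. The same share over all genes was not computed, and for a copy listed near 0 the highest mean can rest on few libraries. By population, the highest mean fell at +10 for 85 copies in LL, 77 in ML and 96 in HL. Of the 351 copy values of each population at +6, 91.7% were 0 in LL, 91.5% in ML and 91.5% in HL. The share at +10 was 35.0% in LL, 19.9% in ML and 19.7% in HL.

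**Figure D1:**
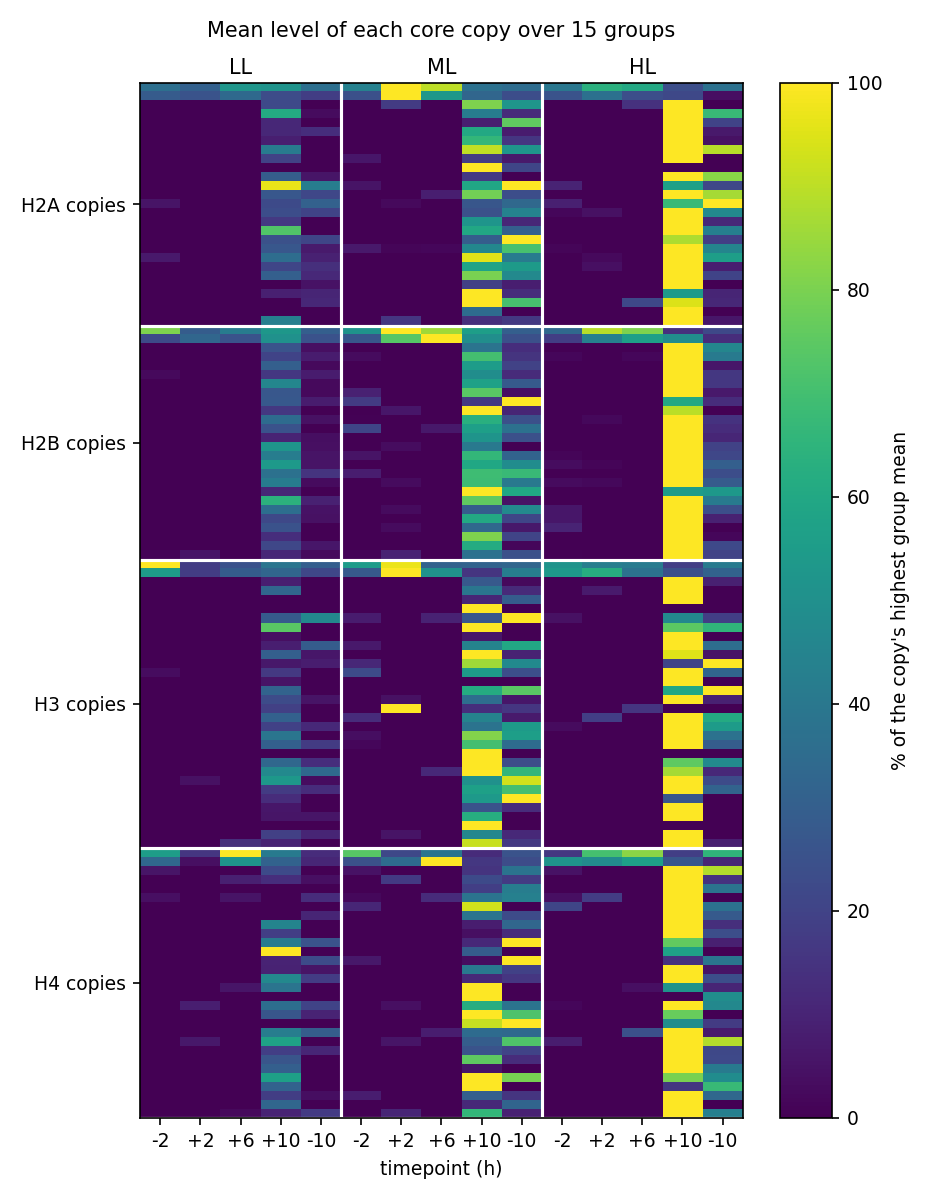
Heat map of the core copies above 0 in at least 1 library. Each row is 1 copy and each column 1 of the 15 groups, coloured by the copy's group mean as a percentage of its own highest group mean. The brightest column is +10 in HL, and the first 2 rows of each class are the 8 copies that were summed apart.

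A set of 8 copies was summed apart, a choice made after their values had been seen. They were the 7 copies with their highest mean at −2, +2 or +6 in every population, and HTB22, which had it at +6 in ML and HL and at +10 in LL. In LL the mean of HTB21 at −2 was 4.65 FPKM with an SD of 3.73, against 3.06 at +10. HTR25 had 1.53 with an SD of 1.33 at −2, against 0.920 at +10, so the peak of both in LL is uncertain. For the other 109 copies, the summed FPKM at +6 was 0.288, 0.193 and 0.216 in LL, 0, 0.761 and 0.377 in ML, and 0.310, 0.584 and 0.0834 in HL. At +10 it was 29.3, 25.3 and 24.2 in LL, 52.3, 64.5 and 36.4 in ML, and 82.5, 88.8 and 104 in HL. Every +10 library lay above every +6 library of its population. The size of this rise follows in part from the choice, which left out copies high at −2, +2 or +6. With the 8 included, the mean sum of all copies at +10 was 3.32 times that at +6 in LL. It was 2.75 times in ML and 6.48 times in HL, again without overlap in any population. After dusk the sum of the 109 copies was 4.75, 6.39 and 8.71 in LL, 20.3, 14.0 and 53.9 in ML, and 22.6, 20.8 and 28.4 in HL, so that −10 lay below +10 without overlap in LL and HL but not in ML, where replicate 3 held the highest of the −10 values and the lowest of the +10 values.

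**Figure D2:**
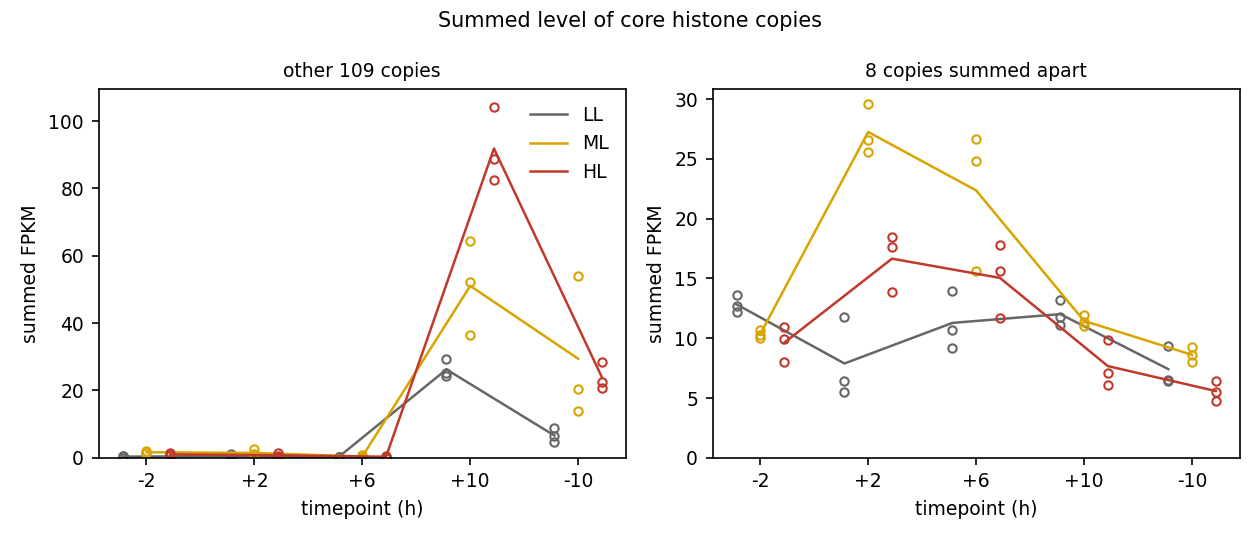
Summed FPKM of the 109 copies (left) and of the 8 copies summed apart (right) at each timepoint in h. Circles are libraries, 3 per group, and lines join the means. The 109 copies were highest at +10, with means of 26.3 in LL, 51.1 in ML and 91.9 in HL, while the 8 copies had their highest mean, 27.2, at +2 in ML.

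At +10 against +6, limma on log2(FPKM + 1) called 9 of the 39 tested members higher in LL (13.0% of all genes tested were called higher), 17 in ML (17.1%) and 32 in HL (16.6%). A call needed a log2 fold change beyond 1 in either direction together with a p, adjusted by Benjamini-Hochberg, under 0.01. None was called lower in LL (6.16% of genes were) or in ML (11.2%), where 0 and 4 members were lower at an unadjusted p under 0.05, and 1 was called lower in HL (12.3%). The 32 in HL comprised both H1 genes, 6 H2A, 14 H2B, 3 H3 and 3 H4 copies, and 4 variants. The 9 in LL were both H1 genes, the same 4 variants and 3 H2B copies. With a pseudocount of 0.1 in place of 1, 28 were called higher in LL, 30 in ML and 32 in HL, so the difference in count between populations depended on the pseudocount. Of the 39 tested members, 22 reached the filter only with the libraries at +10, and 13 only with those of HL. The filter thus favoured members high at +10, so a count above the share of all genes is not in itself a result.

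The contrast of +10 with −2 gave the same counts of members called higher, 9 in LL (18.4% of genes tested), 17 in ML (23.1%) and 32 in HL (21.7%), and none lower in LL (11.2%), ML (16.6%) or HL (14.8%), where 0, 0 and 2 were lower at an unadjusted p under 0.05. Against +2, a comparison added after the values had been seen, 9 members were called higher in LL (17.6%), 15 in ML (24.7%) and 31 in HL (20.6%). None was called lower in LL (13.6%, with 0 at an unadjusted p under 0.05), while HTA21 and HTR25 were lower in ML (19.8%) and HTB21 in HL (18.2%). At −10 against +10, limma called 5 members lower in LL (18.2%), 4 in ML (26.3%) and 19 in HL (22.8%), and none higher in LL (9.73%), ML (17.1%) or HL (13.5%), where 0, 2 and 0 were higher at an unadjusted p under 0.05. Without ML replicate 3 at −10, 7 were called lower in ML. In that contrast the median log2 fold change of all genes tested was itself −0.11 in LL and −0.13 in ML. The median over the tested members was −0.37 in LL and −0.49 in ML. Each contrast of this paragraph involves +10, so the limit set by the filter holds for these counts and medians too.

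The H2B copy HTB17 had the highest +10 mean of any copy in ML and was named after its values were seen. Its +10 FPKM was 2.97, 1.63 and 1.21 in LL, 4.17, 3.22 and 3.11 in ML, and 6.08, 5.29 and 5.30 in HL. It was listed at 0 in all 9 libraries at +6. On the log2(FPKM + 1) scale limma put +10 above +6 by 1.51 (SE 0.16, adjusted p = 5.03e-10) in LL, 2.16 (SE 0.16, adjusted p = 3.73e-14) in ML and 2.71 (SE 0.16, adjusted p = 1.05e-16) in HL.

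Of the linker histone genes, HON1 and HON3 were also highest at +10 and HON2 stayed low. HON3, an H1 gene, was at or below 0.0949 FPKM in all 9 libraries at +6. At +10 it had 10.4, 7.67 and 6.94 FPKM in LL, 26.4, 26.2 and 9.81 in ML, and 36.4, 45.7 and 38.3 in HL. The +10 against +6 log2 fold change was 3.18 (SE 0.27, limma adjusted p = 2.52e-12) in LL, 4.28 (SE 0.27, adjusted p = 4.59e-16) in ML and 5.27 (SE 0.27, adjusted p = 2.37e-18) in HL. HON1 had 7.78, 7.07 and 6.73 FPKM at +10 in LL, 20.2, 19.4 and 9.80 in ML, and 27.8, 31.5 and 32.1 in HL. After dusk HON1 had 5.09, 4.55 and 7.24 FPKM in LL, 12.8, 11.3 and 19.5 in ML, and 7.14, 10.3 and 14.3 in HL. The −10 against +10 change of HON1 in ML, −0.14 (SE 0.21, limma adjusted p = 0.537), did not pass the test. In HL the same change was −1.49 (SE 0.21, adjusted p = 7.59e-08). HON2 did not exceed 1.09 FPKM in any library and did not pass the filter.

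A single variant carried most of the summed histone FPKM at +10. HAV2, described as an H2A variant, had 1573, 1346 and 1014 FPKM at +10 in LL, 1908, 1778 and 1350.1 in ML, and 1893, 2162 and 2181 in HL. At +6 it had 78.7, 78.9 and 65.5 FPKM in LL, 60.4, 65.0 and 49.4 in ML, and 74.2, 75.7 and 83.2 in HL. The difference on the log2 scale was 4.10 (SE 0.22, limma adjusted p = 2.95e-17) in LL, 4.82 (SE 0.22, adjusted p = 8.93e-20) in ML and 4.72 (SE 0.22, adjusted p = 2.49e-19) in HL. At +10 HAV2 made up a mean of 86.9% of the summed FPKM of all members in LL, 85.5% in ML and 83.3% in HL, and at +2 it made up 38.9% in LL, 35.0% in ML and 44.2% in HL. After dusk HAV2 fell, with a −10 against +10 change of −2.45 (SE 0.22, limma adjusted p = 7.91e-12) in LL, −2.27 (SE 0.22, adjusted p = 2.23e-11) in ML and −2.88 (SE 0.22, adjusted p = 6.49e-14) in HL. The other H2A variant, HAV3, was listed above 0 in 1 library, at 0.511 FPKM in ML replicate 3 at −10.

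Of the 3 H3 variants, limma called HTV1 and HTV3 higher at +10 against +6 in every population and HTV2 in none. HTV3 had 62.8, 67.8 and 47.0 FPKM at +10 in LL, 90.9, 77.9 and 55.6 in ML, and 98.1, 97.8 and 107 in HL, and at +2 no library exceeded 2.04. The +10 against +6 change of HTV3 was 3.84 (SE 0.44, limma adjusted p = 3.10e-09) in LL, 4.18 (SE 0.44, adjusted p = 2.81e-10) in ML and 3.97 (SE 0.44, adjusted p = 9.06e-10) in HL. HTV1 had 35.1, 33.8 and 26.1 FPKM at +10 in LL, 60.5, 57.5 and 55.4 in ML, and 76.8, 69.4 and 72.6 in HL. The libraries of the 3 populations did not overlap for HTV1 at +10, yet neither LL against ML (log2 fold change −0.86, SE 0.37, limma adjusted p = 0.0628) nor HL against ML (0.33, SE 0.37, adjusted p = 0.538) passed the test. HTV2 was present at every time, between 28.1 and 71.1 FPKM over the 45 libraries. Its +10 against +6 change was 0.57 (SE 0.09) in LL, 0.49 (SE 0.09) in ML and 0.96 (SE 0.09) in HL, with limma adjusted p of 8.53e-07 in LL, 6.45e-06 in ML and 6.85e-12 in HL, and none reached the fold required. Under quantile normalization the HL change of HTV2 was 1.09 and was called. HBV1, described as an H2B variant, had 8.24, 6.42 and 7.44 FPKM at +10 in LL, 5.68, 5.91 and 7.27 in ML, and 7.88, 6.36 and 8.21 in HL, and its lowest group was +6 in ML, at 0, 0.772 and 1.34.

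**Figure D3:**
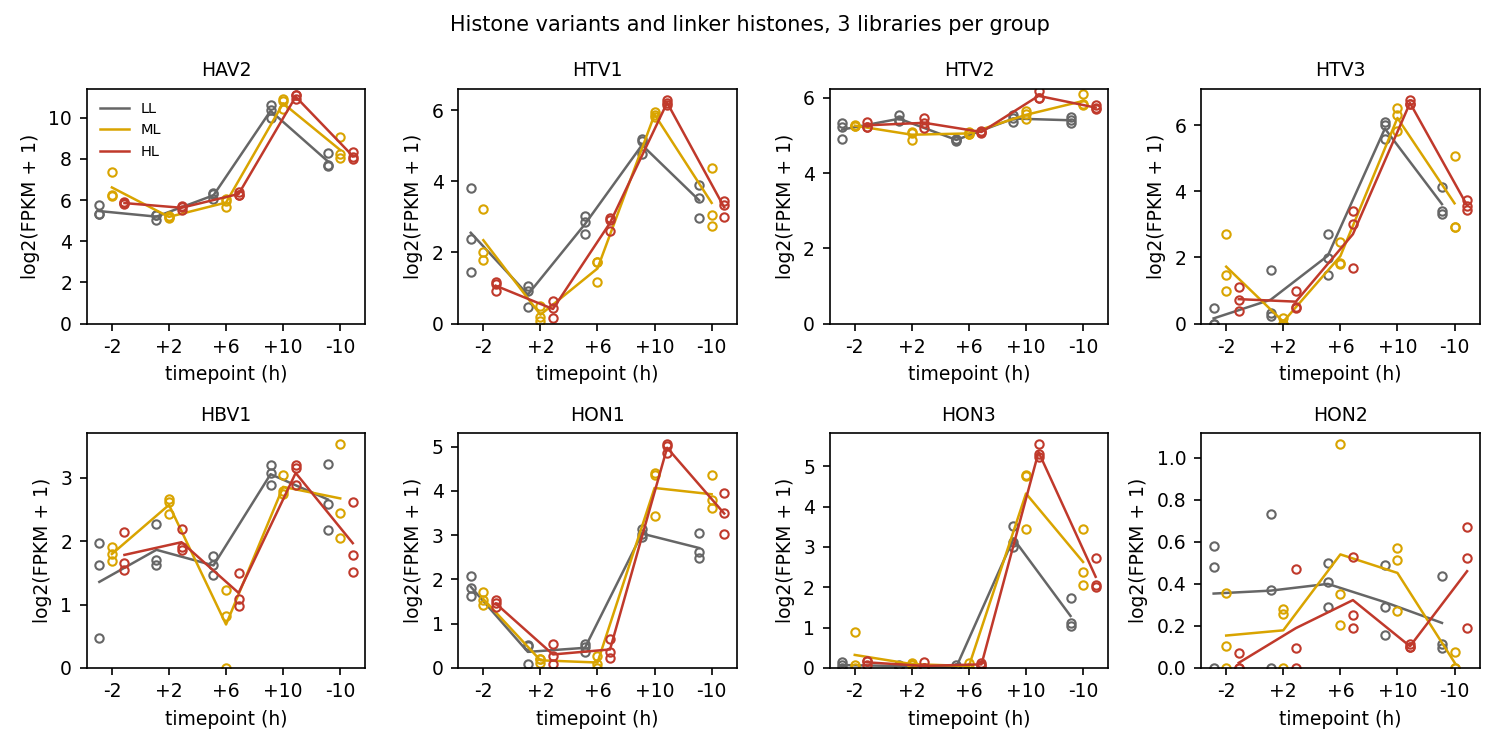
FPKM on a log2(FPKM + 1) axis against timepoint in h for 5 histone variants and the 3 linker histone genes. Circles are libraries and lines join the means of LL, ML and HL. HAV2, HTV1, HTV3, HON1 and HON3 rose at +10, while HTV2 lay between 28.1 and 71.1 FPKM in all libraries.

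At +10 the summed level of all 117 copies was ordered by light intensity, with means of 38.3 FPKM in LL, 62.5 in ML and 99.5 in HL and no overlap between populations. LL was 0.612 times ML and HL was 1.59 times ML, and without ML replicate 3 at +10 these ratios were 0.548 and 1.42. The 8 copies summed apart did not follow this order. Their sum was 13.2, 11.1 and 11.8 in LL, 11.04, 12.0 and 11.3 in ML, and 7.08, 9.82 and 6.12 in HL, so that HL lay below every ML library at 0.670 times the ML mean and LL overlapped ML. These 8 were chosen after their values were seen, 7 of them for a highest mean at −2, +2 or +6 in every population. Their level at +10, and that of the 109 copies left, is thus partly a result of that choice. For the other 109 copies, the LL sum (mean 26.3 ± 2.72, SD, n = 3) was 0.514 times the ML sum (51.1 ± 14.1, n = 3), and the libraries did not overlap. The HL sum (91.9 ± 11.2, n = 3) was 1.80 times the ML sum, again without overlap. Without ML replicate 3 the ratios were 0.450 for LL over ML and 1.57 for HL over ML. These sums have no test. By class, with the variants left out and the 8 copies included, LL over ML was 0.657 for H2A, 0.607 for H2B, 0.541 for H3 and 0.627 for H4, and the LL libraries lay below all ML libraries except in H4. HL over ML was 1.44 for H2A, 1.47 for H2B, 1.78 for H3 and 2.12 for H4, with the HL libraries above all ML libraries in H2B and H4 and overlapping them in H2A and H3. The H1 sum was 0.419 times ML in LL and 1.88 times ML in HL, without overlap in either case. Ratios of the copies by class without ML replicate 3 ran from 0.465 in H3 to 0.592 in H2A for LL over ML and from 1.30 in H2A to 1.83 in H4 for HL over ML, and those of H1 were 0.339 for LL and 1.52 for HL.

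**Figure D4:**
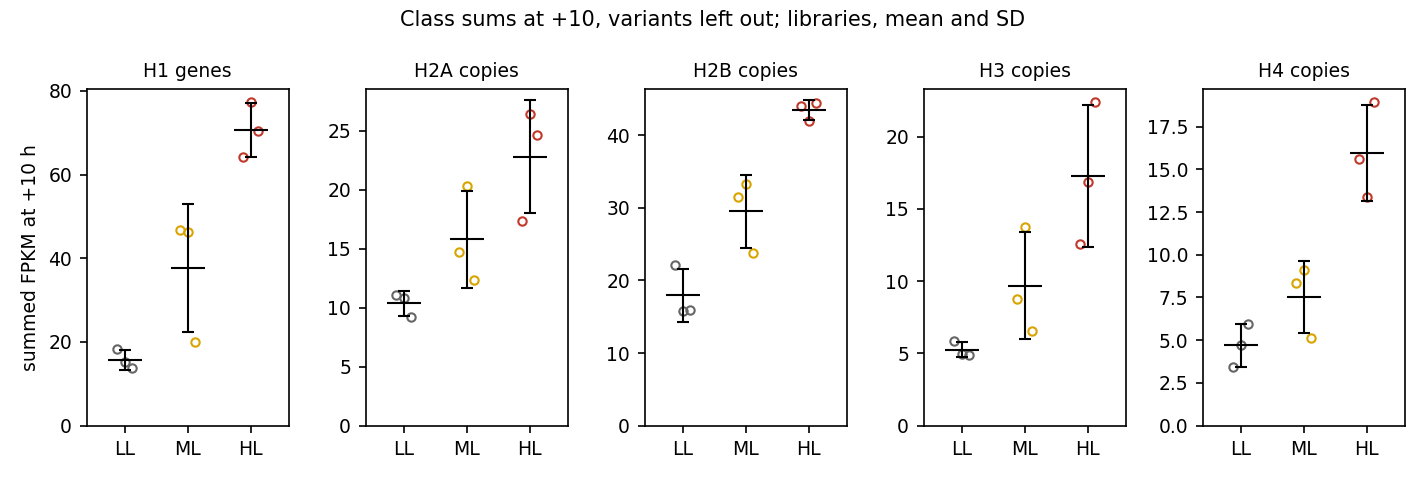
Summed FPKM at +10 of the H1 genes and of the H2A, H2B, H3 and H4 copies, variants left out, in LL, ML and HL. Circles are libraries, the horizontal bar is the mean and the vertical bar the SD (n = 3). All 5 sums were ordered LL, ML, HL by their means, and the lowest ML circle is replicate 3 in each panel.

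The copies were also compared one by one. At +10 the LL mean was below the ML mean for 84 of 117 copies, and the HL mean was above the ML mean for 87 of 117. Over all genes above 0 in any library, 8999 of 16735 were lower in LL and 7320 were higher in HL. The LL libraries lay entirely below the ML libraries for 20 of the copies (28.8% of all genes did) and the HL libraries entirely above for 21 (20.8%), so that neither count stood above the background. The HL libraries lay entirely above the LL libraries for 44 copies (30.6%).

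In limma at +10, LL against ML called 2 members lower (1.38% of genes tested) and none higher (3.57%), with 20 of the 39 lower and 0 higher at an unadjusted p under 0.05. Both were linker histones. HON3 was lower in LL by a log2 fold change of −1.12 (SE 0.27, adjusted p = 0.00106) and HON1 by −1.03 (SE 0.21, adjusted p = 0.000136), the 3 LL libraries lying below the 3 ML libraries for HON1 and overlapping them for HON3. Both calls were lost with a pseudocount of 0.1 (limma adjusted p = 0.0691 for HON3 and 0.0321 for HON1). The call of HON1 was also lost under median scaling, at −0.96. That of HON3 was lost with each timepoint modelled alone (limma adjusted p = 0.0178). Without ML replicate 3 at +10 HON3 stood at −1.57, HON1 at −1.35, and the H2B copy HTB9 was also called at −1.0013. With replicate 1 or replicate 2 left out of every group no member was called, and with replicate 3 left out 4 were. HL against ML called 2 members higher (3.24%), HTB9, an H2B copy, by 1.07 (SE 0.22, adjusted p = 0.000208) and HON3 by 1.03 (SE 0.27, adjusted p = 0.00334), and 1 lower (0.438%), the H2B copy HTB21 by −1.27 (SE 0.33, adjusted p = 0.00275). HTB9 had 4.84, 3.91 and 4.77 FPKM in HL, against 1.49, 2.57 and 1.00 in ML. HTB21 had 0.303, 1.04 and 1.05 FPKM in HL, against 3.58, 2.92 and 3.21 in ML. All 3 of these calls were lost without ML replicate 3 at +10, when HTB9 stood at 0.88 (adjusted p = 0.00547), HON3 at 0.58 (adjusted p = 0.0979) and HTB21 at −1.27 (adjusted p = 0.0113). In HL against ML the filter favoured higher members, because 13 of the 39 reached it only with the HL libraries at +10.

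HL against LL at +10 called 9 members higher (2.23% of genes tested) and 1 lower (3.14%). Of the 39 tested members, 13 reached the filter only with the HL libraries at +10. The filter thus favoured calls of higher in HL, and the count cannot be read against the share of all genes. The higher members were HON3 (2.15, SE 0.27, limma adjusted p = 7.09e-08), HON1 (1.94, SE 0.21, adjusted p = 2.60e-09), HTB9 (1.88, SE 0.22, adjusted p = 1.07e-08), 3 further H2B copies, 1 H3 copy, 1 H4 copy and the H3 variant HTV1 (1.19, SE 0.37, adjusted p = 0.00919). The call of HTV1 was lost with a pseudocount of 0.1, with no filter, with the replicate number as a block (adjusted p = 0.0110), under median scaling, without ML replicate 3 at +10 and with any of the 3 replicates left out of every group. HTB21 was lower in HL (−1.20, SE 0.33, adjusted p = 0.00279). For HAV2 the same difference was 0.68 (SE 0.22, adjusted p = 0.0112), which passed neither threshold. Under quantile normalization the HAV2 difference was 1.23 (SE 0.25, limma adjusted p = 0.000140) and was called, so this result depended on the normalization.

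**Figure D5:**
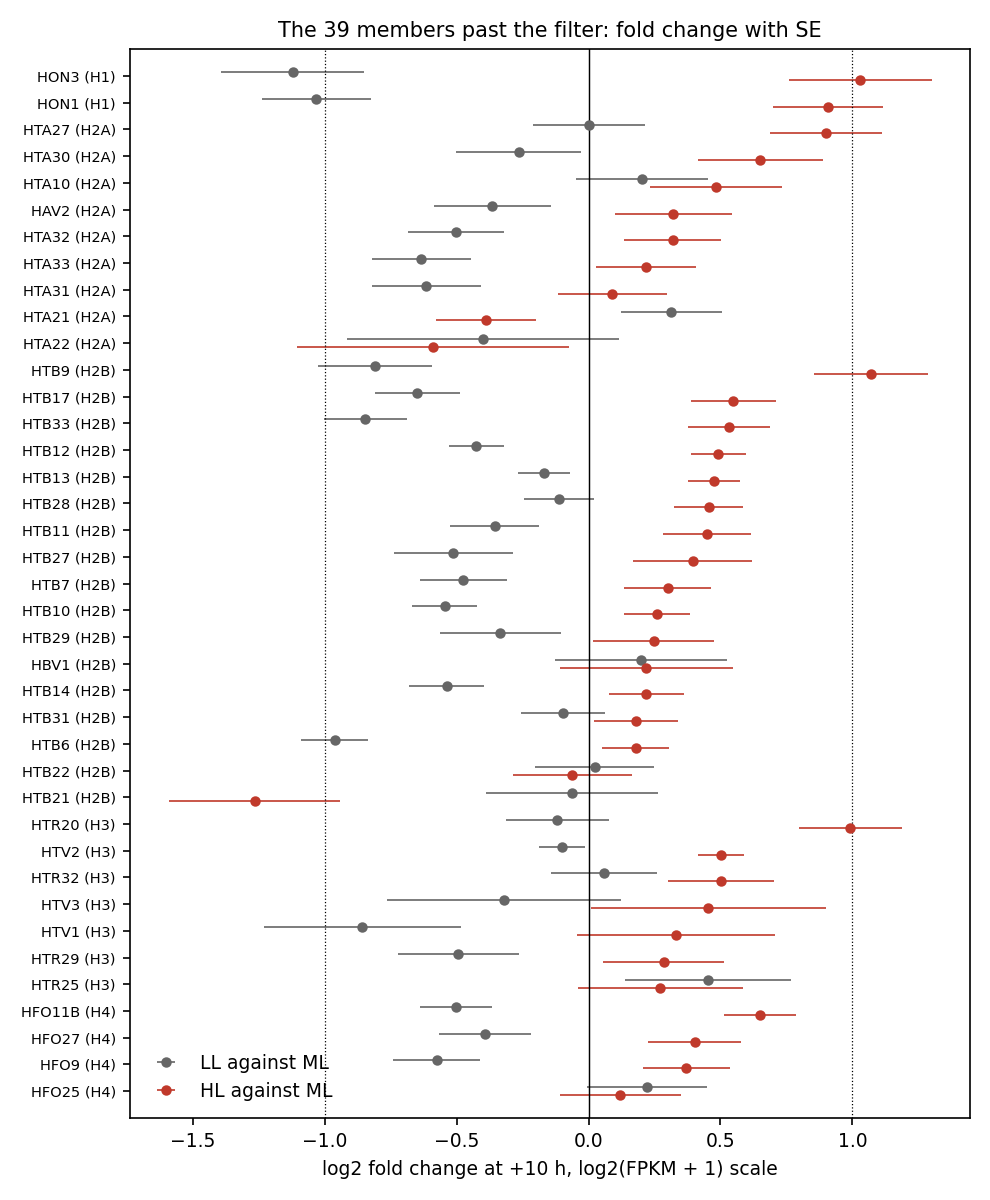
Log2 fold change at +10 on the log2(FPKM + 1) scale, with its SE, for the 39 members past the filter, LL against ML and HL against ML. Dotted lines mark the threshold of 1. Both comparisons share the ML libraries, and only HON1, HON3, HTB9 and HTB21 passed the test in either.

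At −10 all populations were in the dark, and the LL libraries had the lowest sums. The 109 copies summed to 0.225 times ML in LL and 0.813 times ML in HL. Without ML replicate 3, whose sum of 53.9 was far above the 20.3 and 14.0 of the other ML libraries, LL was 0.385 times ML and HL was 1.39 times ML, so the side on which HL lay depended on that library. Limma called 3 members lower in LL against ML at −10 (2.00%), HON3 (−1.34, SE 0.27, adjusted p = 0.000189), HON1 (−1.21, SE 0.21, adjusted p = 1.89e-05) and HTA30, an H2A copy (−1.03, SE 0.24, adjusted p = 0.000879). HON3 had 1.15, 1.04 and 2.30 FPKM in LL at −10, against 4.22, 3.12 and 9.96 in ML. HTA30 had 0, 0.257 and 0.148 FPKM in LL, against 1.45, 0.750 and 1.85 in ML. For HON3, HON1 and HTA30 every LL library lay below every ML library. None was higher (2.85%), and 17 were lower and 0 higher at an unadjusted p under 0.05. No call was left without ML replicate 3 at −10, with HON3 at −0.93, HON1 at −0.996 and HTA30 at −0.87, and 1 call was left with replicate 1 out of every group. HL against ML at −10 called no member higher (0.781%) or lower (0.294%) by limma, with 15 at an unadjusted p under 0.05.

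The 8 copies summed apart were spread over the 4 core classes. They are the H2A copies HTA21 and HTA22, the H2B copies HTB21 and HTB22, the H3 copies HTR24 and HTR25 and the H4 copies HFO24 and HFO25. Their sum in ML was 10.7, 10.0 and 10.3 FPKM at −2, 29.6, 26.6 and 25.6 at +2, and 15.6, 26.7 and 24.8 at +6. Later in the cycle it was 11.04, 12.0 and 11.3 at +10, then 8.60, 7.98 and 9.24 at −10. At −2, +2 and +6 they held 86.2% to 98.3% of the summed FPKM of all 117 copies in every population, and at +10 they held 31.4% in LL, 18.3% in ML and 7.71% in HL. These shares follow in part from the way the 8 were chosen. In LL the sum of the 8 copies was 13.2, 11.1 and 11.8 at +10, against 13.9, 10.7 and 9.21 at +6, and these overlapped. Its highest mean in LL was at −2, with 12.7, 12.2 and 13.6 FPKM in the dark. The H4 copy HFO25 had 0.146, 0.0853 and 0.377 FPKM at +10 in ML, against 0.401, 0.628 and 0.288 at +2. HFO27, the other H4 copy of highest mean, is not among the 8 and had 1.45, 1.28 and 0.878 FPKM at +10 in ML, against 0, 0 and 0.240 at +2.

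In the morning these copies differed between populations. At +2 their sum was 11.8, 5.48 and 6.42 FPKM in LL, 29.6, 26.6 and 25.6 in ML, and 17.6, 18.4 and 13.9 in HL, and no LL or HL library reached an ML library. Limma called 4 members lower in LL against ML at +2 (3.23% of genes tested), all of them among the 8, and none higher (4.28%, with 1 higher at an unadjusted p under 0.05). In ML 88.0% of the copy values at +2 were 0, so few copies outside the 8 could be called lower. The 8 were also chosen on these same values. The difference in their sum, and the place of all 4 calls among them, thus follow in part from that choice. HTA22 had 3.49, 1.02 and 2.24 FPKM in LL, against 10.3, 8.76 and 7.20 in ML (log2 fold change −1.65, SE 0.52, adjusted p = 0.00946). HTB21 had 2.70, 1.52 and 0.811 FPKM in LL, against 6.31, 6.06 and 4.94 in ML (−1.39, SE 0.33, adjusted p = 0.000677). HTR25 had 0.478, 0.773 and 0.227 FPKM in LL, against 1.80, 3.26 and 3.29 in ML (−1.33, SE 0.31, adjusted p = 0.000745). HTA21 had 2.34, 0.927 and 1.36 FPKM in LL, against 5.66, 4.46 and 4.97 in ML (−1.28, SE 0.19, adjusted p = 1.16e-06). For all 4 no LL library reached an ML library. The call of HTA22 was lost with a pseudocount of 0.1 (adjusted p = 0.0803), with no filter (0.0126), with the replicate number as a block (0.0108), under quantile normalization (0.0156), without ML replicate 3 at +10 or at −10, and with replicate 2 or 3 left out of every group. The call of HTR25 was lost with a pseudocount of 0.1 (limma adjusted p = 0.0120) and with replicate 3 left out (0.0569). That of HTB21 was lost with replicate 2 (limma adjusted p = 0.0288) or replicate 3 (0.0185) left out. With replicate 2 left out of every group the count was 2, and with replicate 3 left out it was 1. HL against ML at +2 called none higher (4.51%) or lower (1.46%) by limma, with 5 members at an unadjusted p under 0.05.

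At +6 limma called 1 member lower in LL against ML (1.92%) and none higher (1.97%, with 2 higher at an unadjusted p under 0.05). It was HTB22, with 1.31, 1.59 and 1.12 FPKM in LL, against 3.48, 7.43 and 4.98 in ML (log2 fold change −1.38, SE 0.23, adjusted p = 1.1e-05). HL against ML at +6 called none higher (1.37%) or lower (0.644%) by limma, with 3 at an unadjusted p under 0.05. Before dawn, at −2, limma called HAV2 lower in LL against ML (1.33%, −1.15, SE 0.22, adjusted p = 0.000250) and nothing higher (1.62%, with 0 higher at an unadjusted p under 0.05). HAV2 had 52.4, 39.7 and 38.6 FPKM in LL, against 72.4, 165 and 75.8 in ML, and without ML replicate 2 at −2 the difference was −0.77 (adjusted p = 0.00928) and no longer called. HL against ML at −2 called no member higher (0.233%) or lower (0.274%) by limma, with 3 at an unadjusted p under 0.05.

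The change of +10 against +6 differed between LL and ML for 3 members. The difference of the +10 against +6 change, LL minus ML, was called lower (3.53% of genes tested) for HTV1 at −2.10 (SE 0.53, limma adjusted p = 0.00259) and HON1 at −1.36 (SE 0.29, adjusted p = 0.000510), and higher (4.34%) for HTB22 at 1.41 (SE 0.32, adjusted p = 0.000892). HTV1 had 7.07, 6.27 and 4.69 FPKM in LL at +6, against 2.33, 2.34 and 1.25 in ML. The LL libraries lay above the ML libraries at +6 and below them at +10. For HTB22 the changes had opposite signs, 0.66 (SE 0.23, limma adjusted p = 0.0121) in LL and −0.75 (SE 0.23, adjusted p = 0.00362) in ML, and neither was called. The difference without ML replicate 3 at +10 was −2.13 for HTV1, −1.68 for HON1 and 1.37 for HTB22, all still called. The call of HTV1 was lost with a pseudocount of 0.1 and with any of the 3 replicates left out of every group, that of HON1 without replicate 1 or 2, and that of HTB22 without replicate 3. With replicate 2 left out of every group 1 member was called for LL minus ML. For HL minus ML no member was called higher (2.16%) or lower (1.44%) by limma, with 14 at an unadjusted p under 0.05, and 3 were called with replicate 2 left out.

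In many genomes H2A genes lie beside H2B genes and H3 genes beside H4 genes. In the RefSeq annotation of assembly Chlamydomonas_reinhardtii_v5.5, used for gene neighbours only, all 117 copies were found, and 116 had a copy of the partner class as direct neighbour, the exception being the H2A copy HTA8. The 8 copies summed apart form 4 such pairs, HTA21 with HTB21, HTA22 with HTB22, HTR24 with HFO24 and HTR25 with HFO25. The H3 copy HTR23 was beside HFO23, which was highest at +10. HTR23 was highest at +2 in ML, at a mean of 0.155 FPKM with an SD of 0.269, so this peak is uncertain. Both HTR23 and HTB22 were highest at +6 in HL and at +10 in LL, but only HTB22 was placed among the 8. That the 8 form whole pairs thus follows in part from a choice made after the values were seen. Whether adjacent genes overlap and share reads was not tested.

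Most of the genes of DNA replication examined beside the histones also rose at +10. The replication list held 10 genes, the MCM2 to MCM7 helicase subunits, the sliding clamp PCN1 and 3 ribonucleotide reductase subunits. At +10 against +6, 6 of the 10 were called higher in LL (13.0% of all genes tested were), 9 in ML (17.1%) and 8 in HL (16.6%) by limma, and none lower (6.16% in LL, 11.2% in ML and 12.3% in HL), with RIR2L, a ribonucleotide reductase gene, at −0.34 in ML. At +10, LL against ML called 7 of 10 lower (1.38%) and none higher (3.57%), with a median log2 fold change of −1.04. HL against ML called 0 of 10 higher (3.24%) or lower (0.438%), with a median of −0.42. PCN1 had 266, 283 and 263 FPKM in HL at +10, against 407, 353 and 411 in ML. The clamp was thus lower in each HL library than in every ML library (limma log2 fold change −0.53, SE 0.28, adjusted p = 0.157), and unlike the histone sums its ML replicate 3 was the highest of the 3. RIR2 had 299, 314 and 318 FPKM in HL, against 383, 319 and 308 in ML. RIR1 had 211, 211 and 210 FPKM in HL, against 293, 256 and 284 in ML. A difference between these genes and the histone copies in their response to HL was not tested.

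The list of histone chaperones held ASF1, which carries H3 and H4 dimers, and 3 nucleosome assembly proteins. Of the 4, 1 was called higher at +10 against +6 in LL (13.0% of all genes tested were), 1 in ML (17.1%) and 2 in HL (16.6%) by limma, and none lower (6.16% in LL, 11.2% in ML and 12.3% in HL). ASF1 had mean FPKM of 39.1 at +10 in LL, 74.2 in ML and 57.4 in HL, and its +10 against +6 log2 fold change was 1.46 (SE 0.17) in LL, 2.77 (SE 0.17) in ML and 1.82 (SE 0.17) in HL. HBP1, the histone hairpin-binding protein, lies outside both lists and was added after its values had been seen. It had 33.9, 28.3 and 23.4 FPKM at +10 in LL, 52.8, 47.6 and 58.9 in ML, and 36.7, 40.5 and 40.7 in HL. The +10 against +6 log2 fold change of HBP1 in ML was 4.08 (SE 0.20, limma adjusted p = 5.65e-19). The difference of that change from ML was −1.67 (SE 0.29, adjusted p = 2.74e-05) for LL and −1.34 (SE 0.29, adjusted p = 0.000985) for HL. At +10 neither LL against ML (−0.88, SE 0.20, adjusted p = 0.000602) nor HL against ML (−0.42, SE 0.20, adjusted p = 0.108) passed both thresholds.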

How the data were processed

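Poly(A) RNA of 45 libraries was sequenced as 50-nt reads. Per the labels and the study's methods, the authors aligned reads with STAR 2.4.0j to the v6.1 assembly and computed FPKM with cuffdiff 2.0.2, and the deposited per-replicate FPKM values were used as they stand. A table of group means was not used. The members and lists were chosen with earlier results of these data known. Depth was not recoverable: 37.3% of 56971 low values were whole multiples of 1 read within 0.05, and 3 versions of this estimate disagreed for LL replicate 1 at −2, so genes above 0 are given instead.

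A gene was tested where 3 or more libraries reached 1 FPKM, which 14602 genes did. The model, limma 3.58.1 under R 4.3.3, took log2(FPKM + 1) with 15 group means, with an intensity trend and Benjamini-Hochberg adjustment within each contrast. Calls needed an absolute log2 fold change above 1 and adjusted p below 0.01. Fold changes of low genes are understated on this scale. The fit was tested on simulated data. Named were the 2 members of highest mean FPKM per class, every variant and H1 gene, and up to 3 called members per direction in each comparison between populations. Other names were chosen after their values were seen. The study describes replicates as independent experiments. Deviations of same-numbered libraries did not correlate above 0.1 in every pair, so replicate numbers were not taken as pairs. The same culture may have been sampled at each timepoint, which these correlations cannot settle. The main model took all libraries as independent.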

Additional observations from a re-analysis of the deposited data

Results flagged for a closer look

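The change at the end of the day, +10 against +6, differed between LL and ML for 3 members by a test of the difference itself. It was smaller in LL for the H3 variant HTV1 (LL minus ML −2.10 on the log2 scale) and for the linker histone gene HON1 (−1.36), while for the H2B copy HTB22 (1.41) the changes had opposite signs, 0.66 in LL and −0.75 in ML, neither of which was called. HTB22 is 1 of the 8 copies summed apart, and its values were 2.93, 2.49 and 2.61 FPKM at +10 in LL, against 2.55, 2.89 and 2.41 in ML. None of the 3 calls held under every setting. HTV1 lost its call with a pseudocount of 0.1 and with any replicate left out of every group. HON1 lost it without replicate 1 or 2, and HTB22 without replicate 3.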

How the results depend on the processing

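Counts here are of members called in either direction. Of the named members' fold changes under these settings, 1247 kept their sign and their side of the threshold, 68 lost their call, 16 gained one and 23 changed sign. The 23 belong to 14 of 101 named results, none of them called, and the cause was not tested. HBV1 in HL against LL at +10 was −0.0407 under median scaling and −0.0646 under quantile normalization, and HTR25 in LL at +10 against +6 was −0.0062 and −0.1392 under the same settings. HTB22 in LL against ML at +10 was −0.0162 without ML replicate 3 at +10. With libraries left out, the ranges that crossed 0 were, for HL against LL at +10, −0.0337 to 0.0575 for HBV1, −0.6671 to 0.3541 for HTA22, −0.2924 to 0.0977 for HTB22, −0.3242 to 0.0604 for HFO25 and −0.406 to 0.1094 for HTR25, for HL against ML at +10, −0.3293 to 0.0932 for HTB22 and −0.145 to 0.3355 for HFO25, for LL against ML at +10, −0.1357 to 0.026 for HTB21, −0.0369 to 0.1144 for HTB22 and −0.5578 to 0.2545 for HTA30, and for +10 against +6, −0.4296 to 0.2643 for HFO25 and −0.0522 to 0.3307 for HTR25 in LL, and −1.055 to 0.2988 for HTA22 and −0.607 to 0.0068 for HTR25 in HL. A pseudocount of 0.1 in place of 1 raised most counts, because low copies then pass the fold threshold more easily: LL against ML gave 2 at −2, 3 at +6 and 9 at −10, HL against ML gave 2 at +2, 1 at +10 and 2 at −10, HL against LL at +10 gave 17 (for HL against ML at +10 the split was 0 higher and 1 lower, and for LL against ML at +6 it was 2 higher and 1 lower), +10 against +6 gave 28 in LL and 32 in ML, +10 against −2 gave 29 in LL and 30 in ML, and −10 against +10 gave 14 in LL and 15 in ML. With a mean FPKM of at least 5 fewer members were tested. LL against ML then gave 2 at −2 and 0 at +2, HL against ML 1 at +6 and 1 at +10, HL against LL at +10 gave 3, and +10 against +6 and +10 against −2 gave 5 in every population, as did −10 against +10 in HL. With each timepoint modelled alone LL against ML gave 0 at −2, 2 at +6, 1 at +10 and 0 at −10, and HL against ML 1 at +2 and 1 at +6. Median scaling gave 2 at −2, 2 at +6 and 1 at +10 for LL against ML. Under it the summed FPKM over all members of a class at +10 was 60.3 for H1, 1794 for H2A, 43.5 for H2B and 219 for H3 in HL, and 30.65 for H2B and 161 for H3 in ML. Under median scaling the median of all genes in +10 against +6 moved to −0.16 in LL, −0.21 in ML and −0.20 in HL. Quantile normalization gave 2 at −2 and 6 at −10 for LL against ML, 9 and 21 for +10 against −2 in ML and HL, and 12 for −10 against +10 in HL. The cause was not tested for the last 3 settings. With variants left out, the class sums at +10 in LL, ML and HL were 10.4, 15.8 and 22.8 for H2A, 17.9, 29.5 and 43.5 for H2B, and 5.24, 9.69 and 17.3 for H3. Summing only members with a mean of at least 1 FPKM gave 13.1, 12.1 and 10.9 for H2B, an order opposite to that of the full sums, and 240.1 for H3 in HL.

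Without LL replicate 1 at −2 the counts were 2 for LL against ML at +6 and 1 for HL against ML at +6. Without ML replicate 2 at −2 they were 0 for LL against ML at −2, 2 at +6 and 1 for HL against ML at +6. Without ML replicate 3 at −10 they were 2 at −2, 2 at +6 and 0 at −10 for LL against ML, 1 for HL against ML at +6, 7 for −10 against +10 in ML and 1 for the HL minus ML difference. Without ML replicate 3 at +10, HL against ML at +10 gave 0. Leaving out libraries in turn, by replicate number or singly, LL against ML ranged over 0 to 2 at −2, 1 to 5 at +2, 1 to 2 at +6, 0 to 4 at +10 and 0 to 4 at −10. HL against ML ranged over 0 to 1 at +6, 0 to 3 at +10 and 0 to 1 at −10. The LL minus ML difference ranged over 1 to 4, the HL minus ML difference over 0 to 3, and −10 against +10 over 3 to 7 in LL and 4 to 8 in ML.

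Deviations of libraries with the same replicate number correlated weakly and not in every pair, so the numbers were not taken to pair the libraries: over 30 correlations of LL or HL with ML r ran between −0.058 and 0.329 with a median of 0.055, 10 of them above 0.1, and over 90 between timepoints r ran between −0.30 and 0.225 with a median of 0.033, 16 of them above 0.1. With the replicate number as a block, HTV1 in HL against LL at +10 (adjusted p = 0.0110) and HTA22 in LL against ML at +2 (adjusted p = 0.0108) were no longer called, and no count moved by more than 1.5 times. With each culture as a block no named result changed its call. FPKM without library sizes gives no counting error for single copies, and a value of 0 sets no limit on a copy's level.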
